A study of Homo sapiens with 8 samples.

Results

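The genes TH, DDC, LMX1A, LMX1B, FOXA1, FOXA2, PITX3, EN1 and ALDH1A1 are widely read as marks of midbrain dopaminergic neurons and their precursors. DBH, whose enzyme turns dopamine into noradrenaline, was grouped with them here. These 10 genes were chosen by name from the 60286 genes of the count matrix, and all 10 had counts. The RNA of 43693 single cells had been counted in neural cultures grown from the established human embryonic stem cell line H1, to compare flat (2-D) with organoid (3-D) cultures and their responses to cocaine, morphine and dopamine. Barcodes were added over several rounds in which the cells were split among wells and pooled again, and 1 pool was sequenced as 8 sublibraries. Each cell name carried 1 of 46 culture tags, which give the arrangement with its format, the treatment and a number, and every comparison below is between tags.

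Arrangements 2DMono and 3DMono had 6 tags each, 2 per treatment, with the treatment tags AcDop, AcMor and Vehic. Arrangement 2DCocu had 12 tags, 4 each with AcCoc, AcMor and Vehic. Arrangement 3DFusi had 10 tags, 4 with AcCoc and 3 each with AcMor and Vehic. The arrangements 2DProto2Fjo, 2DProto3Wu and 2DProto4Nic had 2 tags each, and 3DProto1For and 3DProto2Xia had 3 each, all without a treatment code. The labels name dopamine, cocaine, morphine and no treatment but do not define these tag codes, of which Mono, Cocu and Fusi are read here as single culture, co-culture and fused organoids, and doses and times are not stated in the labels. All groups share the H1 line, with no genetic change named, and a few organoids went into each papain dissociation. The labels do not say that tags of a group were separate cultures, so p-values measure the spread between tags, which may be technical.

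The deposited matrix summed to 793413159 expected counts, with a median of 12776 per cell (range 3375 to 511102) and 33482645 to 193113605 per arrangement. A barcode was shared by more than 1 sublibrary in 2393 of 41192 cases. Over the sublibraries LMX1A had 69.1 ± 2.02 CPM (counts-per-million of the total; SD, n = 8) and TH 0.601 ± 0.0867 CPM (SD, n = 8). Other rare genes ranged more widely between sublibraries, PITX3 from 0.251 to 0.529 CPM and DBH from 0.823 to 1.5 CPM. In sums over the cells of a tag, fewer cells of a type and less RNA per cell cannot be told apart. Of the 41 clusters of cells, none was named as dopaminergic neurons. The cluster highest in TH held 4 of 8 dopaminergic neuron markers that left out the 10 genes, enough for the name, but was left unnamed since markers of another class were more frequent among its leading genes.

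To make dopamine, tyrosine hydroxylase (TH) turns tyrosine into L-DOPA, and DDC then removes its carboxyl group. DBH then turns dopamine into noradrenaline, so it belongs to noradrenergic rather than dopaminergic neurons. In the embryonic ventral midbrain, FOXA1, FOXA2, LMX1A and LMX1B act in floor plate progenitors that become dopaminergic neurons. EN1 sets midbrain identity and keeps these neurons alive, PITX3 is needed in substantia nigra neurons, and ALDH1A1, a retinaldehyde dehydrogenase, marks a subset of them. Each gene also works elsewhere: LMX1A in roof plate and choroid plexus, FOXA1 and FOXA2 in floor plate along the whole neural tube and in endoderm, PITX3 in lens and muscle.

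RefSeq promoter entries (build GRCh38.p14) matched 7 of the 10 genes, at 9 starts. TH, FOXA2 and EN1 were not matched. The stretches before the transcription start of DDC and DBH are shown because these enzyme genes both rose in fused organoids against flat co-culture, and those of LMX1A and LMX1B because these close relatives shared cells while only LMX1A passed in that comparison. For DDC and LMX1A, which had 2 starts, the start whose window held no annotated exon is printed. Each line gives 250 bases up to the start, 5′ to 3′ on the gene's own strand, except DBH, which is a run of 30 bases that begins 181 bases before the start. Capitals mark ATTA, the core of many homeodomain sites, and TGACGTC, the core of a cyclic AMP response element, on either strand.
DDC, second start, minus strand, chr7:50561072-50561321: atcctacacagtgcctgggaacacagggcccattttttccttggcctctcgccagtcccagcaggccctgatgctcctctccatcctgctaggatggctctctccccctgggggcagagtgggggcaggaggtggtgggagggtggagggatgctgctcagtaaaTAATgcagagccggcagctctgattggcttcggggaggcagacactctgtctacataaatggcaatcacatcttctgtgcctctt
DBH, plus strand, chr9:133636182-133636211: TGACGTCcatgtgtcATTAgtgccaATTAg
LMX1A, first start, minus strand, chr1:165356716-165356965: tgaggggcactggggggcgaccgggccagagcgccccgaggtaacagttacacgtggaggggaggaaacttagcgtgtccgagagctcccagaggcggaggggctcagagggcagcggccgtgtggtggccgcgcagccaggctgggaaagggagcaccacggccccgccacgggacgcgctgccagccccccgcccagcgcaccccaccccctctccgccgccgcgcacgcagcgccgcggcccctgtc
LMX1B, plus strand, chr9:126613678-126613927: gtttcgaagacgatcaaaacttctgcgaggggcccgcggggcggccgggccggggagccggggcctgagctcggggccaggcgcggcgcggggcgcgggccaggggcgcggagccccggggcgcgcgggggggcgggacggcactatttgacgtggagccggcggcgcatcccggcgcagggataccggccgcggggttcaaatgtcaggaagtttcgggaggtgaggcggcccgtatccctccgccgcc

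The DBH window held 3 ATTA matches and 1 TGACGTC match. All 250 of its bases lay in an annotated GENCODE exon of DBH, whose gene record begins upstream, at position 133635348 of GRCh38. The second DDC window held 1 ATTA match, and the window of the first DDC start, of which 52 bases were exon, held 4 at 42.4% G and C. Among 35116 promoters of the same length, 47.4% held ATTA and 3.12% held TGACGTC on either strand. The printed LMX1A and LMX1B windows held neither, nor the forkhead core TGTTTAC, which 2.98% of promoters held. G and C made up 75.2% of the LMX1A window, 76.4% of the LMX1B window and 58% of the second DDC window, against a median of 58% over all promoters. In GRCh38 the noncoding gene ENSG00000224842 (AL161908.1) starts 23 bases inside the LMX1B window on the other strand.

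Over all cells the 10 genes were rare except LMX1A. LMX1A had an entry of at least 0.5 counts in 6440 cells (14.7%), LMX1B in 2360 (5.40%), FOXA1 in 1578 (3.61%) and DDC in 1505 (3.44%). ALDH1A1 was seen in 927 cells (2.12%), DBH in 588 (1.35%) and TH in 369 (0.845%, exact binomial 95% interval 0.761 to 0.935). PITX3 and EN1 were each seen in 243 cells (0.556%), and FOXA2 in 157 (0.359%). Cells with a count were deeper than the rest: those with TH had a median of 21392 counts and those without it 12710. After every cell was thinned to 5000 counts, leaving out 1600 shallower cells, TH was seen in 0.266% and LMX1A in 10.3% of cells. Intervals cover counting error only.

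Counts here are estimates and need not be whole, and entries of DDC were often below 1. Of the 1505 cells with DDC, 529 had an entry of at least 1, against 368 of 369 for TH and 785 of 927 for ALDH1A1. The antisense gene DDC-AS1 overlaps DDC by 11705 bases and DBH-AS1 overlaps DBH by 2728 bases, and they summed to 31.0 and 65.6 counts. The sources used here do not say whether counting used strand, so reads of DDC and DBH cannot be told apart from reads of these partners.

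**Figure D1:**
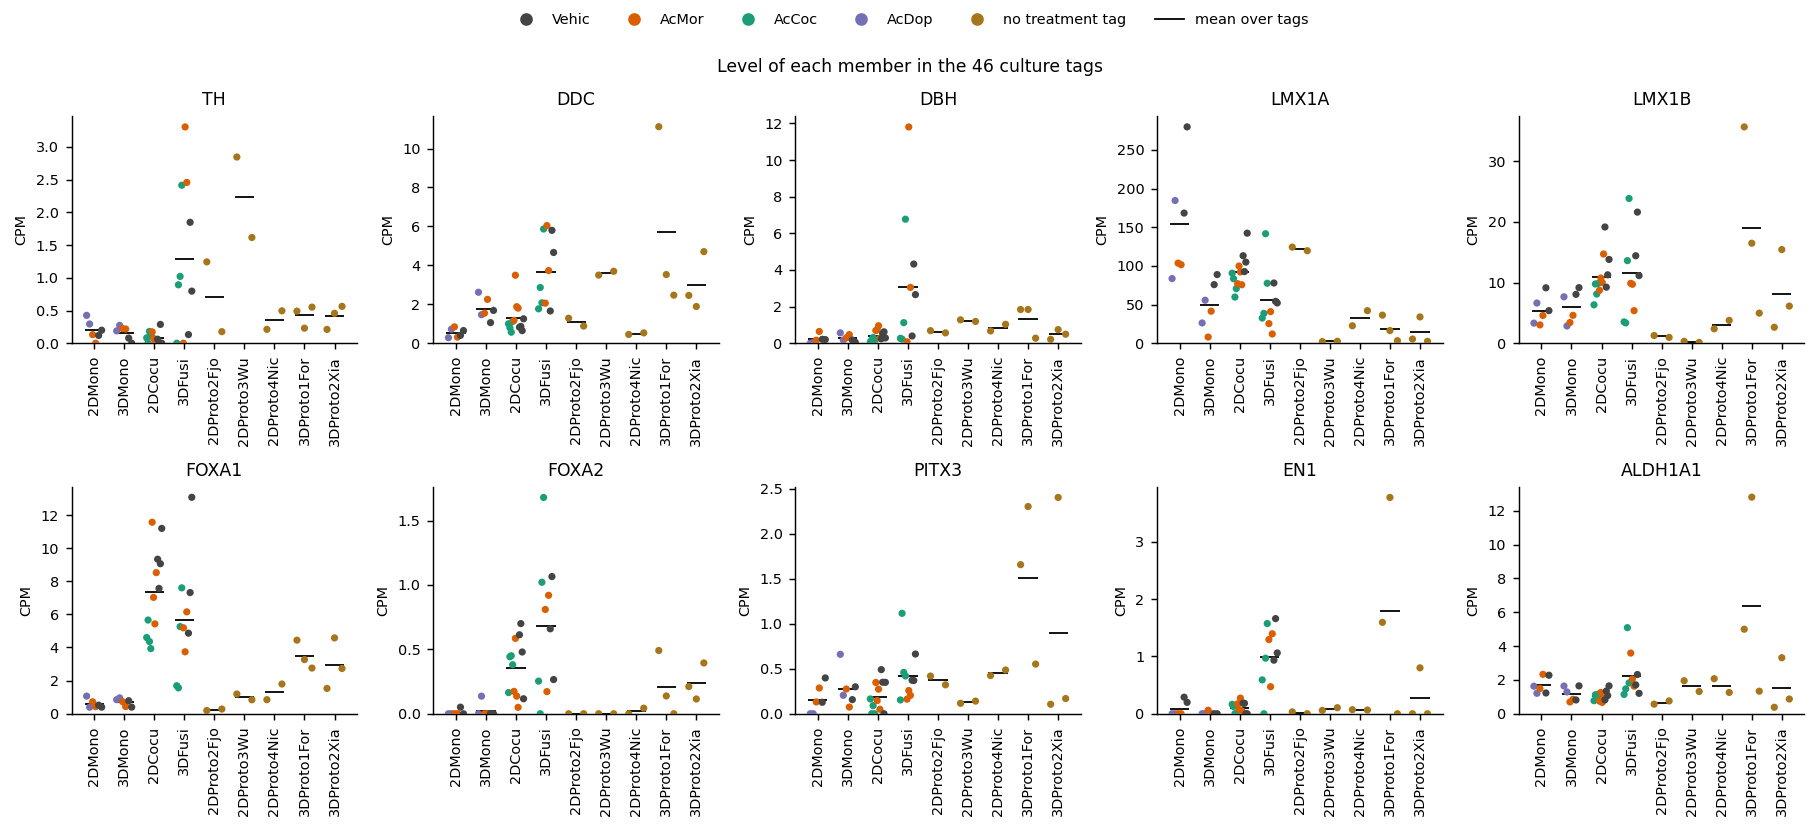
Level of each of the 10 genes (CPM, linear axis that differs between panels) in each of the 46 culture tags, by arrangement. Each point is a tag, coloured by its treatment tag, and the bar is the mean. TH reached 3.31 CPM in 3DFusi and stayed at or below 0.288 CPM in 2DCocu, while LMX1A was highest in 2DMono.

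The enzymes of catecholamine synthesis were higher in fused organoids (3DFusi) than in flat co-culture (2DCocu), a comparison of formats fitted with treatment as a term. TH in 3DFusi ran from 0 through a median of 0.957 to 3.31 CPM over 10 tags, and in 2DCocu from 0 through 0.0672 to 0.288 CPM over 12 tags, with 232 and 11 counts in all. The ranges overlapped, since 2 fused tags had no TH and another had 0.132 CPM. With so few counts in 2DCocu, TH passed the filter on low counts through its 3DFusi tags, so a higher level there was nearly fixed in advance. The log2 fold change was 3.69 ± 0.77 (SE; adjusted p = 0.000421 by edgeR's quasi-likelihood test with Benjamini-Hochberg adjustment over all genes).

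DDC in 3DFusi had a lowest, median and highest level of 1.66, 3.30 and 6.04 CPM, and in 2DCocu of 0.567, 1.06 and 3.49 CPM. Its log2 fold change was 1.46 ± 0.27 (SE; adjusted p = 9.32e-05). DBH had a lowest, median and highest level of 0.0810, 1.89 and 11.8 CPM in 3DFusi and of 0.0822, 0.303 and 0.955 CPM in 2DCocu, with a log2 fold change of 2.82 ± 0.61 (SE; adjusted p = 0.000602). Both genes thus rose on average, while the ranges overlapped for each and the lowest DBH level of either arrangement was in a fused tag. DBH, like TH, passed the filter on low counts through its 3DFusi tags.

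EN1 rose by 3.17 ± 0.41 (log2, SE; adjusted p = 1.54e-06), from 0 to 0.273 CPM in 2DCocu to 0 to 1.66 CPM in 3DFusi. ALDH1A1 rose by 1.00 ± 0.25 (log2, SE; adjusted p = 0.00178) and LMX1A fell by 0.93 ± 0.25 (log2, SE; adjusted p = 0.00427). Of 8 genes tested, 6 passed, 5 higher and 1 lower, where 48.8% of all genes tested passed, 26.1% higher and 22.7% lower. LMX1B (−0.04 on the log2 scale, adjusted p = 0.918) and FOXA1 (−0.46, adjusted p = 0.0690) did not pass, although FOXA1 passed with the tag number as a block (adjusted p = 0.0234), and FOXA2 and PITX3 had too few counts to be tested. TH, DBH and EN1 passed the filter on low counts through their 3DFusi tags, so they could hardly have been tested without being higher there. With Vehic tags alone DDC, LMX1A and EN1 were called, ALDH1A1 no longer passed (adjusted p = 0.288), and TH and DBH had too few counts to be tested.

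A cluster of 674 cells held much of this signal. HAND2-AS1, FAM163A, HAND2 and NOS1 were among its leading genes, and it stayed without a name; 605 of its cells were in 3DFusi, in 8 of 10 tags, and 68 in the second tag of 3DProto1For. HAND2 is a transcription factor of noradrenergic and autonomic neurons. Cells of this cluster made up 0% to 15.1% of a fused tag. They were nearly absent from the tags numbered 1, with 3 cells in AcCoc, 1 in AcMor and none in Vehic, and in those tags TH was at 0, 0 and 0.132 CPM. TH and these cells did not always go together: the third AcCoc tag had 66 of them (4.42%), none with TH, at a tag level of 1.02 CPM, and the second AcCoc tag had none of them at 0.893 CPM.

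**Figure D2:**
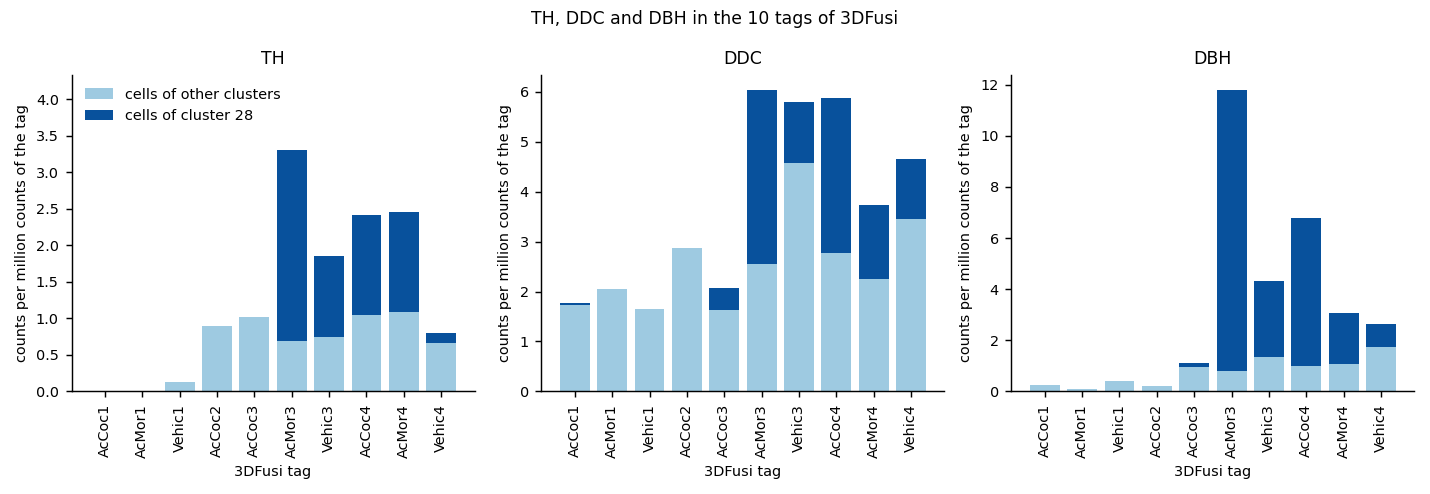
TH, DDC and DBH in each of the 10 fused-organoid tags, as CPM of the whole tag, with the bar divided into cells of the cluster led by HAND2-AS1 (cluster 28, dark) and all other cells (light). In the AcMor tag numbered 3, DBH totals 11.8 CPM and nearly all of the bar is dark, while the bars of the tags numbered 1 are almost wholly light.

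TH in this cluster was at 10.3 CPM (exact Poisson 95% interval 8.62 to 12.2), the highest of the 41 clusters, against 0.595 CPM over all cells. TH was seen in 85 of its 674 cells (12.6%, median depth 15196 counts), against 2 of 3157 roof plate-like cells (0.0634%, median depth 14239) and 0 of 1720 progenitor-like cells. Neurons came closer: TH was seen in 2.21% of GABAergic neuron-like cells (median depth 10073) and 1.90% of neuron-like cells (12075). Excitatory neuron-like cells had it in 0.261%. DDC was at 14.8 CPM and DBH at 32.7 CPM, also the highest of all clusters. The cluster thus held 6.20% of the cells of 3DFusi, 56.1% of its TH counts, 30.4% of its DDC counts and 75.4% of its DBH counts.

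Other genes of noradrenaline handling were highest in the same cluster. PHOX2A was at 18.3 CPM, GATA3 at 58.0, HAND2 at 126, and SLC6A2, the noradrenaline transporter, at 12.2 CPM. Vesicular monoamine transporters SLC18A1 (102 CPM) and SLC18A2 (33.1), GCH1 (28), the first enzyme of the TH cofactor, and the growth factor receptor RET (112) were also highest there. Of these, SLC18A2, GCH1 and RET are also markers of dopaminergic neurons. Other genes of dopaminergic neurons were above their level over all cells, SLC10A4, a vesicle protein, at 10.3 against 2.90 CPM and DRD2, a dopamine receptor, at 6.92 against 3.31 CPM. SLC6A3, the dopamine transporter, was at 0.541 CPM against 0.577 over all cells, NR4A2, a factor these neurons need, at 10.1 against 10.2 CPM and KCNJ6, a potassium channel subunit, at 70.1 against 69.9 CPM. CALB1, a calcium-binding protein, was lower at 4.19 against 17.0 CPM, as were the regulators OTX2, at 6.28 against 22.9 CPM, and EN2, at 2.71 against 3.19 CPM. PNMT, which makes adrenaline, was at 0.541 CPM against 0.554 over all cells.

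Outside the cluster, the fused tags still had 0.690 ± 0.481 CPM of TH, 2.76 ± 1.07 CPM of DDC and 0.867 ± 0.598 CPM of DBH (SD, n = 10). Without its cells, in an alternative chosen after seeing the data, DDC was higher in 3DFusi than in 2DCocu by 1.06 on the log2 scale (adjusted p = 0.00103) and DBH by 1.05 (adjusted p = 0.0294), and TH no longer passed the filter on low counts. EN1 (3.25, adjusted p = 1.25e-06), ALDH1A1 (0.92, adjusted p = 0.00707) and LMX1A (−0.86, adjusted p = 0.00742) stayed past the threshold. Thus 5 genes passed in place of 6.

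Of a list of noradrenergic genes, PHOX2A, PNMT, SLC6A2, GATA3 and HAND2 among them, 5 were tested in 3DFusi against 2DCocu and all 5 were higher, with a median log2 fold change of 2.75 against 0.04 over all genes. In this comparison the counts of this list and of the others are to be read against the 26.1% of all genes that were higher and the 22.7% that were lower. The log2 fold change was 6.42 for HAND2 (adjusted p = 3.04e-06), 2.75 for PHOX2A (adjusted p = 0.000216) and 2.67 for GATA3 (adjusted p = 2.98e-05). HAND2 had 13.2 counts in 2DCocu against 1761 in 3DFusi and PHOX2A 38.5 against 345.5, so they too passed the filter on low counts through the fused tags. Among the 2DCocu tags alone only 1 of the 6 listed genes passed that filter. Most of the 5 were thus tested through the fused tags, so their being higher was nearly fixed in advance and the median shows little. Of 6 tested genes of transmitter synthesis, cofactor and storage, 3 were higher and 1 lower: SLC18A1 by 3.30, SLC18A2 by 0.70 and the cofactor recycling enzyme QDPR by 0.70, against PTS, a cofactor enzyme, at −0.37. Of 15 tested floor plate and midbrain regulators, 8 were higher and 2 lower, with a median log2 fold change of 1.12, among them NKX2-2, a ventral patterning factor (5.28, adjusted p = 2.00e-07, with 8 counts in 2DCocu, so that it too passed the filter through the fused tags), EN2 (1.56, adjusted p = 3.32e-05) and PAX2 (−1.91, adjusted p = 0.00111). Of 8 tested genes of dopaminergic neuron maturation, 3 were higher and 2 lower, among them RET (1.88, adjusted p = 0.000740) and KCNJ6 (−2.33, adjusted p = 1.33e-10). Of 4 tested serotonergic genes, 3 were higher, GATA2, a transcription factor, by 1.73 (adjusted p = 5.13e-05), the serotonin transporter SLC6A4 by 1.00 (adjusted p = 0.00311) and TPH2, the neuronal tryptophan hydroxylase, by 0.89 (adjusted p = 0.0286), and TPH1 was lower (−1.26, adjusted p = 2.18e-07).

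TH was also present outside this cluster, in neurons of other kinds. A GABAergic neuron-like cluster led by LHX8, of whose 1623 cells 93.8% were in 2DProto3Wu, had TH at 2.70 CPM in 72 cells. It held 91.6% of the 95 TH counts of 2DProto3Wu and 86.6% of that arrangement's DDC counts. A neuron-like cluster led by RELN had TH at 2.48 CPM in 36 cells, and a second GABAergic neuron-like cluster at 1.82 CPM in 47 cells. In 2DProto3Wu the tags had 2.85 and 1.62 CPM of TH, the highest mean of the 9 arrangements, followed by 3DFusi. No pair of neighbours in the order of the arrangements for TH was free of overlap.

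**Figure D3:**
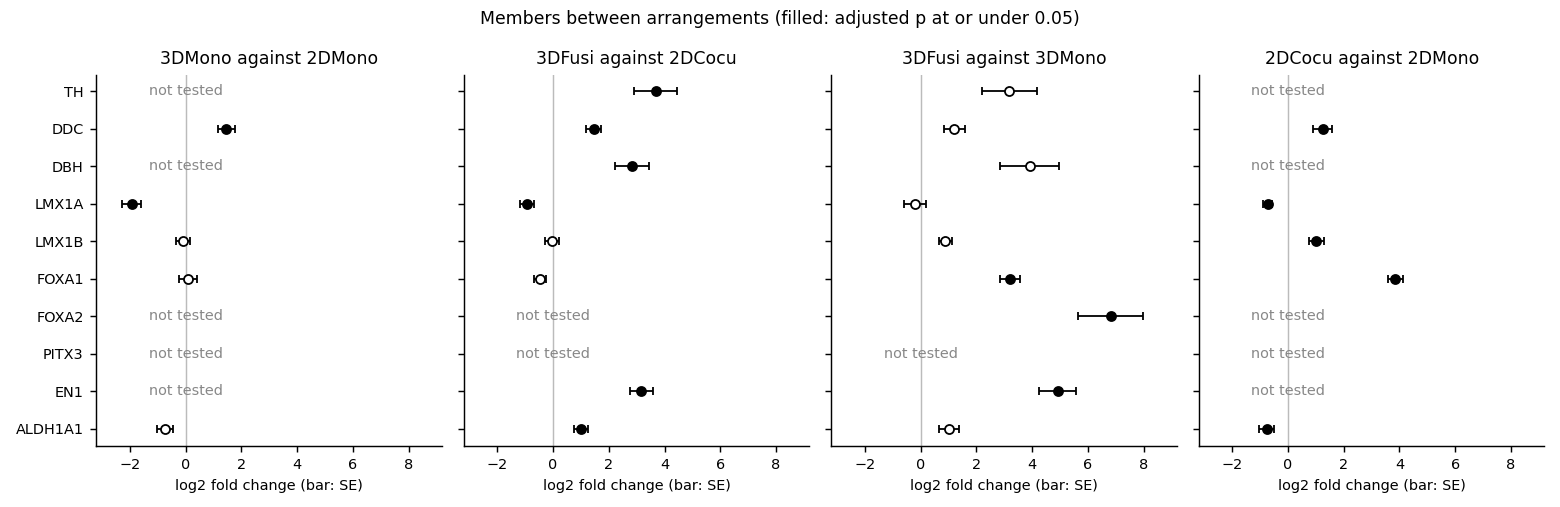
Log2 fold change with its standard error for each of the 10 genes in 4 comparisons of arrangements; filled points passed an adjusted p of 0.05, and genes with too few counts are written as not tested. FOXA1 lay at 3.85 in 2DCocu against 2DMono and at 3.22 in 3DFusi against 3DMono.

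Single organoids (3DMono) against flat monoculture (2DMono) asked the same question of format without a second culture. DDC levels were 1.06, 1.46, 1.55, 1.69, 2.25 and 2.62 CPM in 3DMono and 0.285, 0.312, 0.404, 0.651, 0.721 and 0.843 CPM in 2DMono, with no overlap. DDC rose by 1.46 ± 0.31 (log2, SE; adjusted p = 0.00201), and it passed the filter on low counts through its 3DMono tags. LMX1A levels were 8.00, 26.2, 41.4, 55.6, 75.8 and 88.8 CPM in 3DMono and 83.6, 102, 104, 168, 185 and 280 CPM in 2DMono. Only the highest organoid tag reached into the range of the flat tags, and LMX1A fell by 1.94 ± 0.34 (log2, SE; adjusted p = 0.000687).

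Here 2 of 5 genes tested passed, where 38.0% of all genes passed, 17.5% higher and 20.4% lower. LMX1B (−0.10, adjusted p = 0.777), FOXA1 (0.10, adjusted p = 0.838) and ALDH1A1 (−0.74, adjusted p = 0.0514) did not pass. TH had 22 and 15 counts over the 6 tags of 3DMono and of 2DMono, and it was not tested, nor were DBH, FOXA2, PITX3 and EN1. With Vehic tags alone DDC no longer passed (adjusted p = 0.114).

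Among other genes of the pathway, 3 of 13 tested floor plate and midbrain regulators were higher in 3DMono and 3 lower. Of all genes 17.5% were higher and 20.4% lower, to be set beside this list and the next. WNT5A, a secreted signal, fell by 2.4 (log2, adjusted p = 5.35e-09) and OTX2, a forebrain and midbrain factor, by 1.95 (adjusted p = 1.11e-06), while NEUROG2, a proneural factor, rose by 2.05 (adjusted p = 0.00201). Of 6 tested genes of transmitter synthesis, cofactor and storage, 1 was higher, QDPR by 0.67 (adjusted p = 0.00170), and 2 lower, GCH1 (−1.83, adjusted p = 2.47e-05) and PTS (−0.87, adjusted p = 1.31e-05).

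Whether the effect of format differed between the joined and the single arrangements was tested directly over AcMor and Vehic tags. The log2 fold change of 3DFusi over 2DCocu exceeded that of 3DMono over 2DMono by 5.66 ± 1.05 for EN1 (SE; adjusted p = 0.00114) and by 1.88 ± 0.44 for ALDH1A1 (SE; adjusted p = 0.00761). The EN1 estimate rests on 3 counts in the single organoids. TH (4.05, adjusted p = 0.0968) and DBH (3.13, adjusted p = 0.128) did not pass, and DDC differed by −0.03 (adjusted p = 0.983). In all, 2 of 8 genes passed, both upward, where 9.98% of all genes passed, 5.91% upward and 4.06% downward.

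The forkhead genes FOXA1 and FOXA2, which open chromatin in floor plate and endoderm, were compared between the joined and the single cultures. FOXA1 was higher in both formats, and FOXA2 could be tested in organoids alone. FOXA1 in 2DCocu ran from 5.43 through 8.79 to 11.6 CPM over the 8 AcMor and Vehic tags, and the 4 such tags of 2DMono had 0.398, 0.429, 0.519 and 0.722 CPM. Every co-culture tag was above every monoculture tag, and FOXA1 rose by 3.85 ± 0.28 (log2, SE; adjusted p = 1.36e-08), having passed the filter on low counts through its co-culture tags. FOXA1 in 3DFusi had 3.74, 4.87, 5.19, 6.15, 7.32 and 13.1 CPM, against 0.399, 0.435, 0.724 and 0.784 CPM in 3DMono. It rose by 3.22 ± 0.36 (log2, SE; adjusted p = 0.00461), again with no overlap.

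FOXA2 had 82 counts over the 6 fused tags and 0 over the 4 single organoid tags, so it was at least 21.7-fold higher, taking a floor of 3 counts over the group (adjusted p = 0.0327), a call lost in 7 of 14 alternative analyses. Its level was 0.172 to 1.07 CPM in these fused tags. In 2DCocu and 2DMono it had 35 and 3 counts and was not tested. EN1 had 134 counts in the fused tags and 3 in the single organoids, a ratio per total count of 35.5 (95% counting interval 11.9 to 174; adjusted p = 0.00882).

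In 3DFusi against 3DMono, 3 of 9 genes tested passed, all higher, where 1.47% of all genes passed, 1.07% higher and 0.394% lower. DBH (3.91 on the log2 scale, adjusted p = 0.0855), TH (3.19, adjusted p = 0.122) and DDC (1.21, adjusted p = 0.123) had estimates above 0 that did not pass by edgeR. The same held for LMX1B (0.89, adjusted p = 0.0880) and ALDH1A1 (1.03, adjusted p = 0.170). With the tag number as a block TH was at −0.37, DBH at 0.61 and DDC at 0.46, so the TH estimate changed sign. LMX1B (1.16) and ALDH1A1 (1.71) were higher with the block than without it, and still did not pass. DESeq2 called 7 genes in this comparison, where 1525 of 25125 genes passed by DESeq2. FOXA1, FOXA2 and EN1 passed the filter on low counts through their fused tags. With the tag number as a block, FOXA2 (adjusted p = 0.199) and EN1 (adjusted p = 0.127) no longer passed, and FOXA2 did not pass without the Vehic tag of 3DFusi numbered 3 (adjusted p = 0.0650) or without any 1 of the single organoid tags (0.0569 to 0.106). Without the first Vehic tag of 3DFusi 6 genes passed, and without its first AcMor tag 5.

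Of the 16 floor plate and midbrain regulators tested in 3DFusi against 3DMono, 3 passed, all higher. NKX6-1, a ventral patterning factor, was higher by 2.89 (log2, adjusted p = 0.0369), SHH, the floor plate signal, by 2.64 (adjusted p = 0.0243) and EN2, a midbrain and hindbrain factor, by 1.40 (adjusted p = 0.0258). With the tag number as a block far fewer genes passed in this comparison, 24 of 24718 in place of 350 of 23861. In 2DCocu against 2DMono, NKX6-1 was higher by 4.44 (adjusted p = 7.91e-07), PAX2 by 3.75 (adjusted p = 1.66e-05) and SHH by 1.78 (adjusted p = 0.000384), and OTX2 was lower (−1.38, adjusted p = 3.73e-07), with 4 higher and 5 lower of 14, where 14.6% of all genes were higher and 15.3% lower. Of the listed regulators, 11 passed the filter on low counts among the 2DMono tags alone and 14 among the 3DMono tags alone. The further ones were tested through the tags of the joined cultures, so their being higher there was nearly fixed in advance. Of the 8 endoderm genes listed, 4 were tested in 3DFusi against 3DMono and 3 in 2DCocu against 2DMono. None of those tested was higher, where 1.07% and 14.6% of all genes were. GATA6 was lower in 2DCocu (−1.76, adjusted p = 1.08e-05).

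The 5 genes tested in 2DCocu against 2DMono passed, FOXA1 and DDC having met the filter on low counts through 2DCocu, where 29.9% of all genes passed, 14.6% higher and 15.3% lower. LMX1B rose by 1.01 ± 0.26 (log2, SE; adjusted p = 0.00760) and DDC by 1.24 ± 0.35 (adjusted p = 0.0113), while LMX1A fell by 0.74 ± 0.16 (adjusted p = 0.00205) and ALDH1A1 by 0.77 ± 0.27 (adjusted p = 0.0409). The ALDH1A1 call was lost in 11 of 16 alternative analyses, DESeq2 (adjusted p = 0.0521) and 8 of the fits without 1 tag among them (largest adjusted p = 0.160, without the second AcMor tag of 2DMono), and the DDC call with the tag number as a block (adjusted p = 0.0601). TH had 7 and 10 counts and was not tested.

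FOXA1 in the joined cultures came from different clusters in the 2 formats. In 2DCocu, 59.7% of its counts lay in an unnamed cluster led by ALDH1L1, of whose 2152 cells 2144 were in 2DCocu, and which made up 11.9% to 35.6% of each co-culture tag. FOXA1 was at 23 CPM there. In 3DFusi, 67.8% of FOXA1 counts lay in a floor plate-like cluster of 1806 cells, with SHH and SPON1 among its leading genes and FOXA1 at 23.5 CPM. That cluster held 726 cells of 3DFusi (1.46% to 13.3% of a tag), 83 of 3DMono and 10 of 2DCocu.

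FOXA2 was highest in the same floor plate-like cluster (2.15 CPM, exact Poisson 95% interval 1.68 to 2.72), in 51 cells (2.82%) against 2 of 3157 roof plate-like cells (0.0634%). The cluster led by ALDH1L1 had FOXA2 at 1.42 CPM and held 73.1% of the 52 FOXA2 counts of 2DCocu. CORIN, a floor plate protease (60.7 CPM), SHH (35.1), NKX6-1 (9.40) and SLC6A3 (2.41 CPM, second of the clusters) were high in the floor plate-like cluster, while TH was at 0.154 CPM in 5 of its cells.

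**Figure D4:**
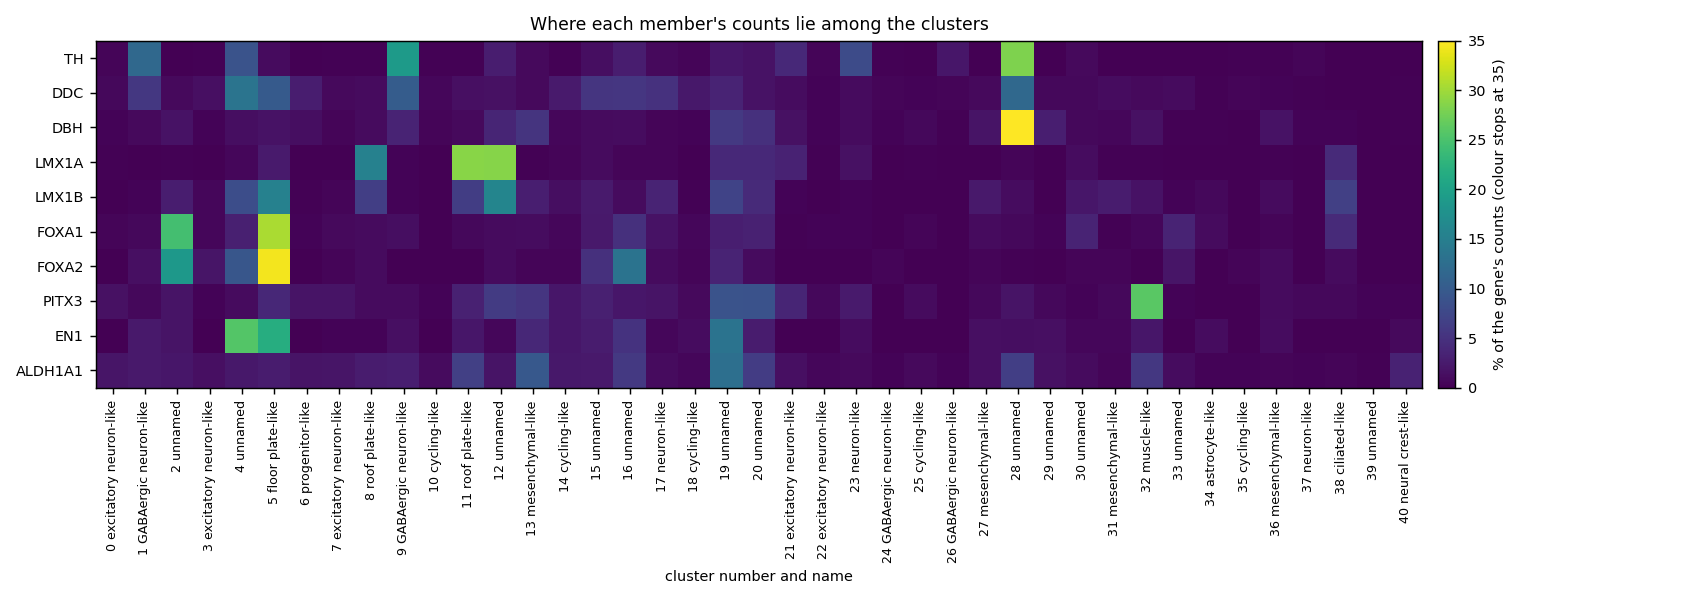
Share of each gene's counts (percent, 1 row per gene) in each of the 41 clusters (columns, with number and name), on a colour scale that stops at 35%. TH and DBH are brightest at cluster 28, led by HAND2-AS1, and DDC is spread, with 11.8% of its counts there, 13.5% in cluster 4 and 9.92% and 10.2% in clusters 5 and 9. FOXA1 and FOXA2 are bright at the floor plate-like cluster and at cluster 2, led by ALDH1L1, and LMX1A at the TTR-led cluster 12 and the roof plate-like clusters.

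LMX1A lay mainly in roof plate-like and TTR-led clusters. A small cluster of 216 cells (cluster 38), 99.1% of them in 2DCocu, had NR5A2, TTC6, LMX1B and LMX1A among its 10 leading genes. It held 4 of 8 ciliary markers, by which it is labelled in the plot of clusters, but none of them among those 10, and 3 roof plate markers, so it is called here by NR5A2. It had LMX1A at 661 CPM, LMX1B at 118 CPM and FOXA1 at 30.2 CPM, the highest level of each. With fewer, larger clusters (resolution 0.4) the highest cluster had LMX1A at 364 CPM and LMX1B at 37.3 CPM. A cluster led by TTR, a carrier protein secreted by choroid plexus, had LMX1A at 473 CPM in 92.7% of its 1328 cells. The 2 roof plate-like clusters had 394 and 311 CPM. The second of them held 90.7% of the LMX1A counts of 2DMono, where it made up 25.7% of the cells, and the TTR cluster held 75.9% of those of 3DMono and 57.5% of those of 3DFusi. Floor plate-like cells had LMX1A at 42.7 CPM and neuron-like cells at 33.0 CPM. Excitatory neuron-like cells had it at 16.3 CPM, GABAergic neuron-like cells at 3.34 CPM and progenitor-like cells at 1.93 CPM. Of the 2206 counts in excitatory neuron-like cells, 1683.5 lay in cells of 2DProto2Fjo in cluster 21, where 183 of 805 cells had LMX1A.

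LMX1B was spread more widely. In 3DFusi 34.7% of its counts lay in the floor plate-like cluster, where it was at 29.6 CPM, and 14.9% in the TTR cluster. In 2DCocu 25.5% lay in the NR5A2 cluster. Among the arrangements LMX1A ran from 154 ± 73.7 CPM (SD, n = 6) in 2DMono to 2.34 ± 0.292 CPM (SD, n = 2) in 2DProto3Wu, and LMX1B from 19.0 ± 15.5 CPM (SD, n = 3) in 3DProto1For to 0.226 ± 0.126 CPM (SD, n = 2) in 2DProto3Wu. In the order of LMX1A no neighbours were free of overlap. For LMX1B the last 3, 2DProto4Nic, 2DProto2Fjo and 2DProto3Wu, were apart from each other.

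Within neuron-like, excitatory and GABAergic neuron-like cells, most of the 10 genes were too low to test. In 3DFusi against 2DCocu neurons LMX1B was lower, at 1.40 ± 1.94 CPM against 7.19 ± 5.86 CPM, a log2 fold change of −2.34 ± 0.45 (SE; adjusted p = 0.000185, with 45.6% of all genes passing, 23.0% higher and 22.5% lower). Different clusters made up these neurons: a cluster led by SLC6A5, the glycine transporter, and PAX2 held 1145 neurons of 2DCocu and none of 3DFusi, and had LMX1B at 17.3 CPM. A GABAergic neuron-like cluster that held 1495 cells of 3DFusi had LMX1B at 0.681 CPM. LMX1A was tested as well and did not pass there (0.56, adjusted p = 0.495) or in 3DMono against 2DMono neurons (0.84, adjusted p = 0.344, with 32.1% of all genes passing, 14.6% higher and 17.6% lower).

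EN1, PITX3 and ALDH1A1 were each high in other cells. EN1 was at 2.81 CPM in an unnamed cluster led by RIT2 and CA10, with NKX2-2 also among its leading genes, and at 2.24 CPM in the floor plate-like cluster, which held 28.1% and 27.5% of its counts in 3DFusi. Among 3DFusi tags EN1 was absent from the second AcCoc tag alone. PITX3 was highest in muscle-like cells (7.93 CPM, in 57 of 387 cells, 14.7%), against 0.0649 CPM in GABAergic neuron-like cells. In 3DProto1For 52.7% of PITX3 counts lay in that muscle-like cluster. ALDH1A1 reached 58.5 CPM in 66 neural crest or Schwann-like cells and 8.52 CPM in the muscle-like cluster. Its highest cluster had 9.94 CPM at resolution 0.4 and 35.5 CPM with doublets removed, so the first value rests on a small cluster. Its highest tag was the second of 3DProto1For, at 12.8 CPM.

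The 10 genes seldom met in a cell. Of 43693 cells, 32320 had none of them, 9003 had 1, 1831 had 2, 434 had 3, 84 had 4, 19 had 5 and 2 had 6 or more. Thus 2370 cells (5.42%) had at least 2, and 1160 (2.65%) when LMX1A was not counted. Deeper cells held more: the median depth rose from 11601 counts with none to 30420 counts with 3. At 5000 counts per cell 1.56% of cells had at least 2, and 4.36% when 5732 cells called doublets were removed.

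For each pair, the cells with both genes were set beside the number that the shares within each tag would give if the genes were independent. FOXA1 and FOXA2 met in 81 cells, 9.57 times that number (exact Poisson 95% interval 7.60 to 11.9), and FOXA2 and EN1 in 16 cells, 9.11 times (5.21 to 14.8). FOXA1 met EN1 in 57 cells (4.98 times), and LMX1B met FOXA2 in 58 cells (4.90 times). LMX1A and LMX1B met in 943 cells (2.63 times, 2.47 to 2.81). By contrast LMX1A met FOXA2 in 30 cells (1.37 times, 0.923 to 1.95). Deeper cells held more of the genes, and the part of depth in these ratios was not tested.

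**Figure D5:**
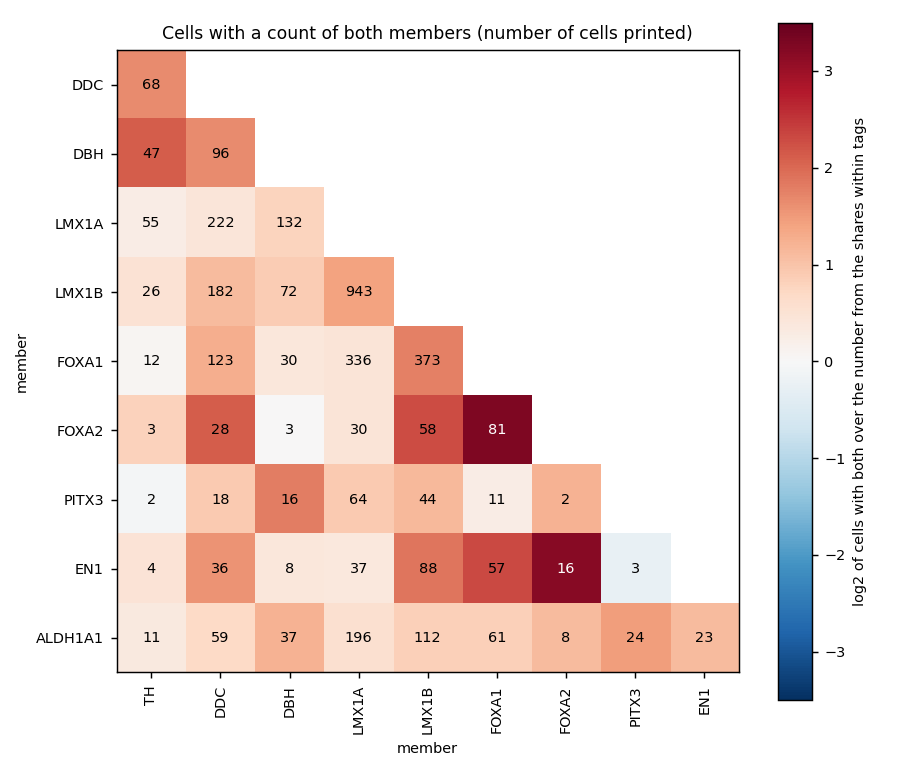
Number of cells with both genes of each pair over the number expected from the shares within each tag, as a colour on a log2 scale, with the number of cells printed in each box. The pairs among TH, DDC and DBH and those among FOXA1, FOXA2, EN1 and LMX1B are red, and the darkest box is FOXA1 with FOXA2 (81 cells).

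The enzyme genes formed a second block. TH met DBH in 47 cells (4.33 times, 3.18 to 5.76) and DDC in 68 cells (3.16 times, 2.46 to 4.01), and DDC met DBH in 96 cells (3.18 times). With every cell at 5000 counts these ratios were 9.36, 4.17 and 7.94, over 10, 6 and 19 cells. All 3 enzymes were seen in 26 cells, 21 of them in 3DFusi and 20 in the cluster led by HAND2-AS1. Within that cluster DDC was seen in 38.8% of 85 cells with TH and in 16.3% of 589 cells without, and DBH in 37.6% and 16.1%, while the cells with TH were deeper (median 21555 against 14477 counts).

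TH was seen with FOXA2 in 3 cells, with EN1 in 4 and with PITX3 in 2, close to the 1.73, 2.90 and 2.09 cells expected, with counts too low to show a difference. It met LMX1A in 55 cells (1.20 times, 0.907 to 1.57) and FOXA1 in 12 (1.04 times). With doublets removed TH met LMX1A in 32 cells (1.07 times, 0.730 to 1.51) and FOXA2 in 1. TH met SLC18A2 in 84 cells, NR4A2 in 61 and SLC6A3 in 5, with no expected numbers to set beside them. In the HAND2-AS1 cluster 0 of 85 cells with TH had FOXA2, PITX3 or EN1. Among its 589 cells without TH, 0 had FOXA2, 4 had PITX3 and 4 had EN1, too few to show a difference.

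Of 5 regulators (LMX1A, LMX1B, FOXA1, FOXA2 and EN1), at least 2 met in 286 cells of the floor plate-like cluster (15.8%) and in 123 cells of the NR5A2 cluster (56.9%), as well as in 199 cells of the TTR-led cluster (15.0%) and 174 of a roof plate-like cluster (10.4%). In the TTR-led cluster 190 cells held LMX1A with LMX1B. Of the 216 cells of the NR5A2 cluster 79 were called doublets, and of the 1806 floor plate-like cells 278. In the HAND2-AS1 cluster 12 of 674 cells (1.78%) had 2 or more.

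Genes whose levels ran most like those of the members are given as a description over 46 tags and 41 clusters, which share cells and depth. FOXA1 ran most like TTC6 (Pearson r = 0.951 over tags and 0.948 over clusters of log2(CPM + 1)), a gene that overlaps the FOXA1 locus by 213 bases on the other strand, and next like ENSG00000259048 (0.914 and 0.901), 438228 bases away. FOXA2 ran most like NKX6-1 (0.807 over tags) and LINC00261 (0.768), whose locus ends 2363 bases from it. LMX1B ran most like COL16A1, a collagen gene, over tags (0.836), and next, and first over clusters, like ENSG00000224842 (0.824 and 0.917), the noncoding gene that starts inside its printed window. LMX1A ran most like RSPO2, a secreted WNT enhancer (0.935 and 0.922).

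DBH ran most like SLC18A1 (0.892 over tags), FAM163A (0.856) and HAND2-AS1 (0.854). Over tags TH ran most like EML5 (0.803), DDC like STAB1 (0.841), EN1 like HOXA3 (0.868) and TBX3 (0.864) and ALDH1A1 like NFKBIZ (0.804). Over clusters other genes came first: SLC5A7, the choline transporter, for TH (0.824), HTR4, a serotonin receptor, for DDC (0.762) and INSC for ALDH1A1 (0.859). PITX3 ran most like the muscle genes TRIM55 (0.907) and ACTC1 (0.892) over clusters. Among the members, TH and DBH had r = 0.776 over tags and 0.552 over clusters. TH and LMX1A had −0.377 and 0.0452.

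Few of the 10 genes differed between treatment tags. In 2DCocu with AcCoc, LMX1A had 59.7, 70.6, 83.4 and 90.6 CPM, against 92.6, 105, 113 and 142 CPM with Vehic, without overlap. It fell by 0.54 ± 0.14 (log2, SE; adjusted p = 0.0288). FOXA1 had 3.93, 4.36, 4.6 and 5.66 CPM with AcCoc and 7.57, 9.06, 9.33 and 11.2 CPM with Vehic, again apart, and fell by 0.94 ± 0.22 (log2, SE; adjusted p = 0.0184). Of 5 genes tested 2 passed, where 6.10% of all genes passed, 3.60% higher and 2.50% lower. Both calls were lost in a fit over the 4 treated arrangements (adjusted p = 0.661 and 0.296), without the third AcCoc tag (0.106 and 0.0591) and without the third Vehic tag (0.0704 and 0.0534). The LMX1A call was also lost with the tag number as a block (adjusted p = 0.0608), without the fourth AcCoc tag (0.0682) and without the first Vehic tag (0.0557) or the fourth (0.0655). Neuron-class cells made up 39.2% to 52.6% of the cells of the AcCoc tags and 10.1% to 21.4% of those of the Vehic tags, without overlap, and their part in the falls of LMX1A and FOXA1 was not tested. LMX1B had 8.51 ± 1.66 CPM with AcCoc and 13.4 ± 4.29 CPM with Vehic (SD, n = 4 each; adjusted p = 0.130).

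In 2DCocu with AcMor no gene of 5 tested passed by edgeR or DESeq2, and 2 had an unadjusted p under 0.05. Of all genes 0.975% passed by edgeR (0.685% higher and 0.290% lower), and 640 of 16974 passed by DESeq2. DDC had 1.17, 1.80, 1.88 and 3.49 CPM with AcMor and 0.647, 0.824, 0.864 and 1.26 CPM with Vehic (log2 fold change 1.36 ± 0.33, SE; adjusted p = 0.0559). The lowest tag with AcMor lay below the highest with Vehic. Without the fourth Vehic tag 1 gene passed. Neuron-class cells made up 41.8% to 45.2% of the AcMor tags, and their part was not tested here either.

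In 3DFusi, 2DMono and 3DMono no member tested passed for any treatment, by edgeR or by DESeq2, and 0% of all genes passed by edgeR. In 3DFusi 0 of 9 genes had an unadjusted p under 0.05 with AcCoc and 1 of 9 with AcMor (LMX1A, 26.1 ± 14.5 against 61.4 ± 14.3 CPM, SD, n = 3 each). In 2DMono 0 of 3 had one with AcDop and 2 of 3 with AcMor, LMX1A (102 and 104 CPM against 168 and 280 CPM) and LMX1B. In 3DMono 0 of 5 had one with AcDop and 1 of 5, LMX1B, with AcMor. TH in 3DFusi had 0, 0.893, 1.02 and 2.41 CPM with AcCoc, 0, 2.46 and 3.31 CPM with AcMor, and 0.132, 0.796 and 1.85 CPM with Vehic. The ranges of the treatments overlapped.

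The effect of AcMor was not shown to differ between formats for any of the 10 genes. In 3DMono against 2DMono, and in 3DFusi against 2DCocu, 0 of 9 genes tested passed by edgeR and by DESeq2. Of all genes 0% passed by edgeR, and 8 of 22777 passed by DESeq2 in each. The counts with an unadjusted p under 0.05 were 1 (EN1) and 0.

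Among the flat arrangements without a treatment code few of the genes passed, at shares near those of all genes. In 2DProto3Wu DDC had 3.5 and 3.70 CPM and in 2DProto4Nic 0.451 and 0.532 CPM, a log2 fold change of 2.55 ± 0.67 (SE; adjusted p = 0.0247). LMX1B was lower in 2DProto3Wu (0.137 and 0.315 CPM) than in 2DProto4Nic (2.37 and 3.77 CPM), by −4.20 ± 1.10 on the log2 scale (SE; adjusted p = 0.0273). These were 2 of 9 genes tested, where 17.0% of all genes passed, 8.48% in each direction. FOXA1 was lower in 2DProto2Fjo (0.193 and 0.283 CPM) than in 2DProto4Nic (0.849 and 1.80 CPM), by −2.75 ± 0.57 (SE; adjusted p = 0.0133), 1 of 9 where 9.53% of all genes passed, 4.85% higher and 4.68% lower.

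LMX1A had 120 and 124 CPM in 2DProto2Fjo, 22.6 and 42.1 CPM in 2DProto4Nic and 2.13 and 2.54 CPM in 2DProto3Wu. For 2DProto2Fjo against 2DProto3Wu it had an adjusted p of 0.05003, just above the threshold. In that comparison 0 of 9 genes passed by edgeR, 2 by DESeq2 and 4 at an unadjusted p under 0.05. Of all genes 5.56% passed by edgeR, 2.89% higher and 2.67% lower, and 2131 of 25364 passed by DESeq2. For 3DProto1For against 3DProto2Xia 0 of 9 passed by edgeR and by DESeq2, and 3 had an unadjusted p under 0.05 (DBH, EN1 and ALDH1A1). Of all genes 0% passed by edgeR, and 115 of 22789 passed by DESeq2. Within 3DProto1For the tags themselves stood far apart: ALDH1A1 had 1.33, 5.00 and 12.8 CPM, EN1 0, 1.60 and 3.78 CPM, and DDC 2.47, 3.53 and 11.1 CPM. The FOXA1 call between these groups of 2 was lost without either tag of 2DProto2Fjo (adjusted p = 0.123 and 0.0812) or the second tag of 2DProto4Nic (0.187). The calls of DDC and LMX1B were lost without any 1 of the 4 tags compared (0.0870 to 0.162 for DDC and 0.0582 to 0.207 for LMX1B).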

How the data were processed

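The authors deposited 1 matrix of expected counts, estimated counts that need not be whole, for 43693 cells and 60286 genes. Salmon 1.7.0, alevin and Seurat 4.1.1 with build hg38 are named in the submitters' processing notes, which give no settings or filters on cells. Of 215531617 non-zero entries, 54.3% were whole and 13.5% lay below 1. A gene was taken as seen in a cell at an entry of at least 0.5.

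The 10 genes and all gene lists (transmitter synthesis, floor plate and midbrain regulators, dopaminergic maturation, noradrenergic, serotonergic, endoderm) were chosen with earlier results of these data known. Besides the members, the genes named were those most like each member (up to 3 over tags and 3 over clusters, mean of at least 1 CPM), up to 4 genes per list past the threshold with the largest change, leading genes of clusters, and list genes in the clusters described, the last chosen after their values were seen. Results for 3 further genes are not reported here.

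Counts were summed per culture tag, rounded, filtered with filterByExpr, scaled by TMM and tested with edgeR 4.0.16 (robust quasi-likelihood, R 4.3.3, limma 3.58.1), with Benjamini-Hochberg adjustment over all genes tested and a threshold of 0.05. Comparisons of arrangements had treatment as a term, and those of 3DFusi with 3DMono and of 2DCocu with 2DMono used AcMor and Vehic tags alone. On data simulated for 3DFusi against 2DCocu (22511 genes), 88% of 2-fold and 99% of 4-fold changes were recovered, and for 2DMono AcMor against Vehic (19416 genes) 27% and 90%. Alternatives were DESeq2 1.42.0, no filter, doublets removed, each tag left out, the tag number as a block, 1 fit over all treated arrangements, Vehic tags alone, thinning to 5000 counts, other entry thresholds, coarser clusters and, chosen after seeing the data, leaving out the cluster highest in TH. Within 3DFusi all 9 same-numbered pairs of tags had correlated deviations (r of 0.150 to 0.668). Pairs with different numbers were mixed. The AcMor tag numbered 4 and the Vehic tag numbered 3 had 0.475, and AcCoc 4 and AcMor 1 had −0.637. Deviations were taken from the mean of each treatment, which ties the values of different pairs to each other. The main fits had no term for the tag number and so treated same-numbered fused tags as independent. In 2DCocu, 2DMono and 3DMono 2 of 12, 2 of 6 and 4 of 6 same-numbered pairs exceeded 0.1. With 2 tags per treatment in 2DMono and 3DMono, the values for numbers 1 and 2 are the same by construction.

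Cells were clustered without the 10 members and the list genes (2000 variable genes, 30 principal components, 20 neighbours, leidenalg 0.10.2 at resolution 0.8), and a cluster was named from at least 3 markers and 40% of a marker list. Doublets were scored against simulated doublets (5732 cells called, 13.1%) and kept in the main results. Shares of cells, pairs and clusters are descriptions with no test. Promoter sequences came from RefSeq.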

Additional observations from a re-analysis of the deposited data

Results flagged for a closer look

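DBH in the fourth AcCoc tag of 3DFusi stood apart from the other tags of its group, at 6.77 CPM against a next highest of 1.12 CPM, a gap of 0.863 of the range of 4 tags. It was the 1 such tag among 50 groups checked, and chance flags about 5% of groups. Cells of the cluster led by HAND2-AS1 made up 14.1% of that tag (84 cells), and outside them DBH was at 1.15 CPM.

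The effect of the 3-D format differed between the joined and the single arrangements for EN1, by 5.66 on the log2 scale, and for ALDH1A1, by 1.88, in edgeR's test of the difference. EN1 passed the filter on low counts through its fused tags and had 3 counts in the single organoids, so its estimate is imprecise.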

How the results depend on the processing

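Of the results recomputed under settings other than leaving out a tag, 202 kept direction and side of the threshold or moved little, 57 moved and 14 lost their call, and with 1 tag or sublibrary left out 482, 15 and 31 did so. None of the genes called in the main fits reversed direction. Among estimates that had not passed, TH in 3DFusi against 3DMono changed sign with the tag number as a block (−0.37 on the log2 scale). The cause of the changes was not tested. With Vehic tags alone, 1 of the 10 genes was called in 3DMono against 2DMono in place of 2, and 3 in 3DFusi against 2DCocu in place of 6. DESeq2 called 7 genes in 3DFusi against 3DMono (edgeR 3) and 2 in 2DProto2Fjo against 2DProto3Wu (edgeR 0). With the replicate block 1 gene was called in 3DFusi against 3DMono and 1 in 2DCocu with AcCoc (2 without it). The block ended the calls of DDC in 2DCocu against 2DMono and of LMX1A with AcCoc, and it added FOXA1 in 3DFusi against 2DCocu (adjusted p = 0.0234) and ALDH1A1 in 3DMono against 2DMono (0.0430). The fit over 4 arrangements called 0 with AcCoc. Without the filter on low counts, 1 gene was called in 2DCocu with AcMor, 1 in 2DMono with AcMor and 1 in 2DProto2Fjo against 2DProto3Wu (0 with it), and within neuron classes 2 in 3DMono against 2DMono (0 with it) and 2 in 3DFusi against 2DCocu (1 with it). With doublets removed, 1 gene was called in 2DCocu with AcMor. The share of cells with at least 2 of the genes was 5.42%, and 4.77% at an entry of at least 1, 1.56% after thinning and 4.36% without doublets.

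Leaving out each tag in turn gave 2 to 3 genes called in 3DMono against 2DMono, 6 to 7 in 3DFusi against 2DCocu, 2 to 6 in 3DFusi against 3DMono, 4 to 5 in 2DCocu against 2DMono, 0 to 2 in 2DCocu with AcCoc, 0 to 1 with AcMor, 0 to 1 in 2DProto2Fjo against 2DProto4Nic and 0 to 0 in 2DProto3Wu against 2DProto4Nic. With 1 tag left in a group, that tag is assumed to vary like the others. Over all genes the share called moved with the settings, from 0.0971% to 6.97% in 3DFusi against 3DMono, 14.4% to 39.8% in 3DMono against 2DMono, 27.6% to 50.5% in 3DFusi against 2DCocu and 16% to 31.3% in 2DCocu against 2DMono. It moved from 0% to 12.8% in 2DCocu with AcCoc, 0% to 6.09% with AcMor and 4.44% to 19.95% in 2DProto3Wu against 2DProto4Nic. Depth limits the shares of cells: thinned to 5000 counts per cell, DDC was seen in 0.755% of cells in place of 3.44%, and TH in 0.266% in place of 0.845%.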
